A study of Mus musculus with 8 samples.

Results

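Calcineurin is a phosphatase that calcium and calmodulin switch on, built from a catalytic A subunit (Ppp3ca, Ppp3cb or Ppp3cc) and a calcium-binding regulatory B subunit (Ppp3r1). It strips phosphates from the transcription factors Nfatc1, Nfatc2, Nfatc3 and Nfatc4, which then enter the nucleus, while Rcan1 binds calcineurin and is itself a classical transcriptional target of the pathway. Nfat5, the remaining family member, shares the DNA-binding fold, lacks the calcineurin-binding region and is known for responses to high salt. In pancreatic beta cells this route links calcium entry to insulin gene expression, granule genes and proliferation.

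These 10 genes were chosen by symbol as the NFAT factors, the calcineurin subunits and Rcan1, and all 10 were among the 16333 genes of the authors' tables. The data were RNA-seq of whole pancreatic islets, hand-picked after collagenase digestion, from 4 mice on an Agouti/C57BL6 background, in 4 groups of 2 libraries. In the NFATc2βKO mice (KO below), tamoxifen given in adult life had removed NFATc2 from cells that the labels describe as INS-1 expressing. The wild-type mice had also received tamoxifen but kept the gene. The authors' tables call the second genotype Mut, a name no label explains. Since only wild type remains, Mut was read as wild type, and the name is kept below. Islets of each mouse spent a night at 5.5 mM glucose and were then divided, 1 portion left without treatment for 2 h and 1 given IL1β (5 ng/mL), TNFα (10 ng/mL) and IFNγ (50 ng/mL) in 11 mM glucose over those 2 h. The glucose of the untreated portion over those 2 h was not given in the sources used here. Cytokines always came with 11 mM glucose, so their effects and those of any rise in glucose cannot be told apart.

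The deposited tables hold group means of normalized counts and not libraries, but the whole reads of each library could be recovered for 16313 genes, or 99.9%, among them all 10 described here. Recovered depth ran from 14679058 to 27062838 reads per library. Y-linked genes showed that every group held 1 female and 1 male mouse, with sums of at most 46.9 normalized counts in the libraries taken as female and at least 8614 in those taken as male. Values are given below with the female library before the male one. The beta-cell markers Slc2a2, Nkx6-1, Mafa, Pdx1 and Ucn3 together held 27359 to 31703 normalized counts in every library, and Ins1, Ins2 and Iapp were in the tables as group means only. Of the marker lists, Prss1 (acinar) and Cd3e, Cd3g, Cd4, Cd8a and Nkg7 (lymphocyte) were not in the tables, from which low genes had been removed. Other cell types varied more. Stromal markers (6 collagen and fibroblast genes) summed to 4525 to 13022 normalized counts in the KO libraries, and in the Mut libraries to 9998 in the cytokine-treated female culture and 1526 to 2033 elsewhere. Endothelial markers (6 of 6) summed to 4397 to 5587 in KO and 6909 to 8976 in Mut, and macrophage markers (6 of 6) to 1580 to 2297 in KO and 953 to 1443 in Mut. Because whole islets were sequenced, fewer cells of a type and less RNA per cell cannot be told apart for any gene below.

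Nfatc2, the deleted gene, and Rcan1, the feedback inhibitor, each start transcription at more than one site, and the sequences before those starts show how differently the sites of a single gene are built. Each promoter runs from 250 bases before to 50 bases after a start, 5′ to 3′ on the gene's strand, from RefSeq on GRCm38.p6. Capitals mark the NFAT core motif, GGAAA or its reverse complement TTTCC, searched on both strands; neighbouring matches did not overlap. The Nfatc2 starts lie 11292 bases apart on the minus strand of chromosome 2 and the Rcan1 starts 66091 bases apart on the minus strand of chromosome 16.
Nfatc2 upstream start (chr2:168601608-168601907): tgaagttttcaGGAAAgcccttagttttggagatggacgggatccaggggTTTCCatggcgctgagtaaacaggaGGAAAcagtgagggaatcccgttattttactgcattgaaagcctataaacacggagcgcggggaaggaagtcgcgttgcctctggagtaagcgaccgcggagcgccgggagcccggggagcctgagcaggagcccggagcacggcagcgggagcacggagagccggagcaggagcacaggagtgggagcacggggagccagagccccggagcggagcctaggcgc
Nfatc2 internal start (chr2:168590316-168590615): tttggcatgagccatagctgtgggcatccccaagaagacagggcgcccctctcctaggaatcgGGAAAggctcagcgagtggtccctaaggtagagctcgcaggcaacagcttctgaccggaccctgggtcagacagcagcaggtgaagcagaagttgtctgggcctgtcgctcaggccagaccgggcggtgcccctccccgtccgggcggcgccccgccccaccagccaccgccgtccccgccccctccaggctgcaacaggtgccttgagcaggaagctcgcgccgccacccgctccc
Rcan1 upstream start (chr16:92466120-92466419): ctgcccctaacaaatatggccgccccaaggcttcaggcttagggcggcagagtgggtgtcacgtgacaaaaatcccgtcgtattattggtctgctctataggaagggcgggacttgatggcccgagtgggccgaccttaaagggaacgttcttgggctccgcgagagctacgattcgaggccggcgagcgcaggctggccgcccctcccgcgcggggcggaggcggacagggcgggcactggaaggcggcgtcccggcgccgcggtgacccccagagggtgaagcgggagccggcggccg
Rcan1 internal start (chr16:92400029-92400328): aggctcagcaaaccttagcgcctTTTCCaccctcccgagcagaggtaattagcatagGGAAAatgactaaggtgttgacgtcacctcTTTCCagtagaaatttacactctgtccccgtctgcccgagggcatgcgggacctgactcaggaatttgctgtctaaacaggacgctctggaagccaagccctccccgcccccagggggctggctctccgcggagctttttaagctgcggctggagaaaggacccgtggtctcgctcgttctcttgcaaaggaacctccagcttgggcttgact
The upstream Nfatc2 promoter held 3 cores and the internal one 1. For Rcan1 the order was opposite, with 0 cores at the upstream start and 3 at the internal start, the one known as calcineurin-responsive. Among 32851 mouse promoters of the same length, 61.3% held at least 1 core and 9.42% at least 3, so a core on its own is common in such windows. The other promoters found for these genes held 0 (Ppp3r1), 2 (Nfat5), 3 (Nfatc4), 4 (Ppp3cb), and 1 and 0 (the Nfatc3 pair); 7 of the 10 genes had an entry, with 10 promoters in all. A match is a letter pattern and not a measured binding site, and the deposited gene counts do not separate transcripts by start.

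Nfatc2 (ENSMUSG00000027544, chromosome 2, 168476410 to 168601657, minus strand, GRCm38) was lower in KO islets than in Mut islets of the same sex and treatment in all 4 pairs, yet it remained well expressed. Untreated KO libraries held 1167 and 842 normalized counts and untreated Mut libraries 1557 and 1270. With cytokines, KO libraries held 987 and 899 and Mut libraries 1646 and 1144. Each female library was above the male one of its group. Within each treatment every KO library was below every Mut library, whereas across treatments the untreated KO female overlapped with the treated Mut male. Group means stood at 1005 ± 230 in KO and 1413 ± 203 in Mut without treatment, and at 943 ± 62.1 in KO and 1395 ± 355 in Mut after cytokines (each ± SD, n = 2). Between mice of the same sex, the KO library held 75% (female) and 66.3% (male) of the Mut level untreated and 59.95% and 78.6% with cytokines. These counts cover the whole gene, and the sources used here do not name the exons that the deletion removes, so they do not show how much of the RNA still carried the deleted segment. The summed endothelial markers were also lower in all KO than in all Mut libraries, and summed alpha-cell markers (4 of 5 genes) were higher in female libraries, at 11877 to 12925 normalized counts against 4778 to 6595 in male ones. Summed delta-cell markers (3 of 3) were highest in the same libraries as Nfatc2, at 41326 and 39046 in the Mut females, 27898 and 26603 in the KO females and 18215 to 20814 in the males. The part of these cell types in the Nfatc2 values was not tested.

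In the authors' deposited table, Nfatc2 differed between KO and Mut by -0.49 on the log2 scale untreated (SE 0.23, 95% interval -0.95 to -0.03, unadjusted p = 0.0359, FDR 0.903). With cytokines the authors' deposited table gave -0.56 (SE 0.24, 95% interval -1.03 to -0.10, unadjusted p = 0.0163, FDR 0.474), a level 1.48-fold lower. Neither passed the FDR of 0.05 used for calls. It was the 1 member of 10 with an unadjusted p below 0.05 in either comparison, where 4.89% and 5.88% of all genes had one. The libraries of a treatment did not overlap, with KO lower, for 18.3% of all genes untreated and 14.2% with cytokines, and KO was lower in all 4 pairs for 15%. Nfatc2's pattern of direction is thus shared by many genes. A limma fit of the recovered reads blocked on sex gave an adjusted p of 0.0646 untreated, where it called 2.1% of all genes, and 0.0367 with cytokines, where it called 3.75%; both libraries of a mouse enter that fit as if independent, which makes its p-values too small. With the mean of both cultures per mouse, an alternative chosen after seeing the data, limma gave -0.52 (SE 0.18, unadjusted p = 0.0356, adjusted p = 0.783). That fit called 0 genes and gave an unadjusted p below 0.05 for 5.84% of them. Without the untreated KO male the untreated difference was -0.27, and without the treated Mut female the difference with cytokines was -0.28. The estimates for Nfatc2 came out negative with each library left out in turn, from -0.74 to -0.27 untreated and from -0.80 to -0.28 with cytokines.

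**Figure D1:**
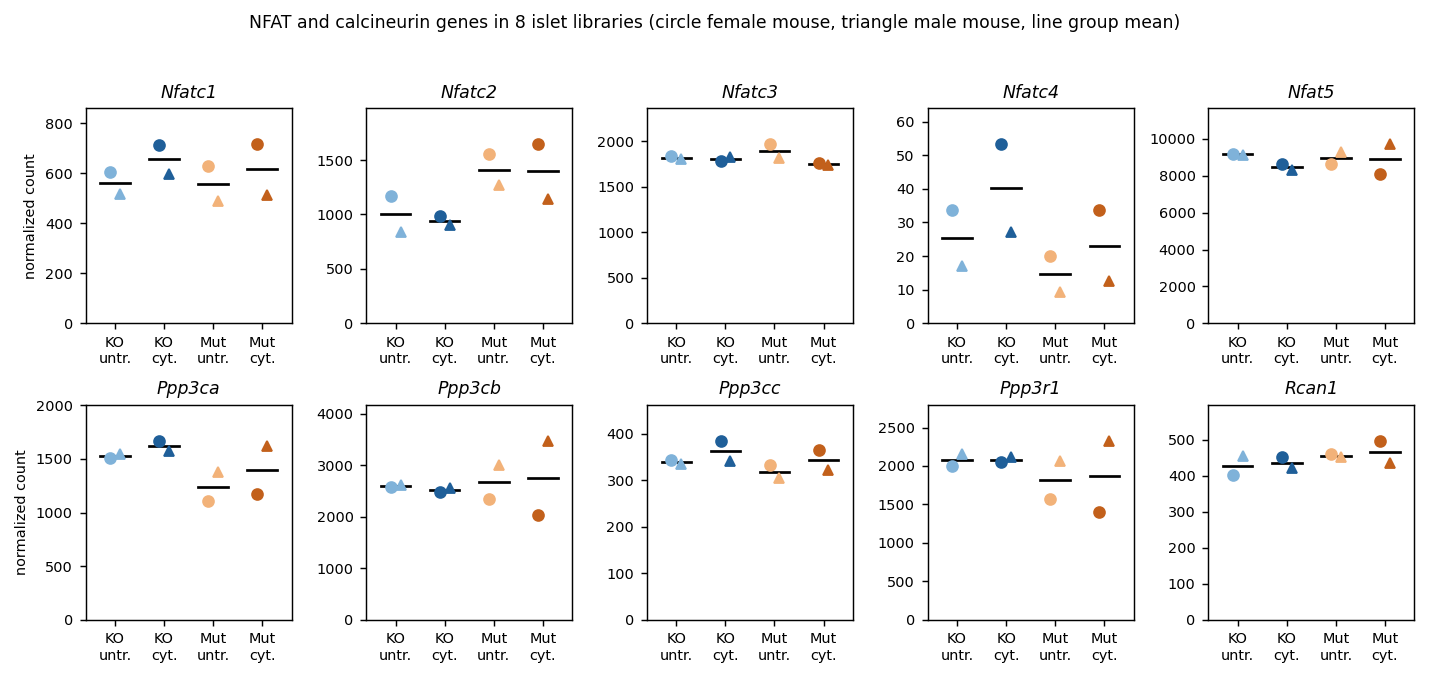
Normalized counts (vertical axes from 0) of the 10 genes in the 8 libraries by group, with circles for female mice, triangles for male mice and a line at the mean of each pair. Nfatc2 is lower in both KO groups (842 to 1167) than in the Mut group of the same treatment (1144 to 1646), while Nfatc3 and Rcan1 stay in narrow bands.

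Among the other calcineurin-dependent factors, none had an unadjusted p below 0.05 between genotypes in the authors' deposited tables. The deposited differences of Nfatc4, a low-count gene described below, were larger in size than those of Nfatc2 but had wide intervals. Nfatc1 (ENSMUSG00000033016), an early and inducible family member in immune cells, held 606 and 515 normalized counts in untreated KO and 630 and 488 in untreated Mut libraries. With cytokines it held 714 and 598 in KO and 717 and 514 in Mut. Its female library was above its male library in every group, and its groups overlapped between genotypes under both treatments. The authors' deposited table gave KO over Mut as 0.00 (95% interval -0.46 to 0.46, FDR 1.00) untreated and 0.09 (95% interval -0.37 to 0.55, FDR 1.00) with cytokines.

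Nfatc3 (ENSMUSG00000031902, chromosome 8, 106058840 to 106130537, plus strand), which is broadly expressed, was the steadiest of the 10, with its highest library only 1.13 times its lowest. It held 1836 and 1804 normalized counts in untreated KO, 1969 and 1818 in untreated Mut, 1786 and 1823 in treated KO and 1767 and 1739 in treated Mut libraries. KO libraries lay above Mut libraries with cytokines without overlap, as for 14.7% of all genes, by 0.04 on the log2 scale in the authors' deposited table (95% interval -0.17 to 0.26, FDR 1.00). Untreated, the authors' deposited table gave -0.06 (95% interval -0.27 to 0.16, FDR 1.00). These intervals leave room for changes of about 1.2-fold at most. Of its exon bases, 219 (1.87%) overlap Esrp2 on the opposite strand, and the strandedness of the libraries was not given in the sources used here.

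Nfatc4 (ENSMUSG00000023411, chromosome 14, 55823144 to 55833943, plus strand), a member described mainly in heart, muscle and nervous tissue, was close to the lower limit of the tables, with 8 to 42 reads per library. It held 33.8 and 17.0 normalized counts in untreated KO, 19.9 and 9.17 in untreated Mut, 53.3 and 27.2 in treated KO and 33.7 and 12.5 in treated Mut libraries. KO was above Mut in all 4 same-sex pairs, as for 15.7% of all genes, the treated culture was above the untreated one in all 4 mice, as for 12.4%, and the female library was above the male one in every group, as for 19.8%. The KO and Mut libraries nevertheless overlapped under both treatments. In the authors' deposited table the log2 difference of KO over Mut was 0.81 untreated (95% interval -0.78 to 2.40) and 0.81 with cytokines (95% interval -0.72 to 2.33), FDR 1.00 in each case. Summed stromal markers were likewise higher in KO (9715 and 5087 untreated, 13022 and 4525 with cytokines) than in Mut (1840 and 1526, then 9998 and 2033), and higher in the female library of each group. Summed acinar markers (6 of 7 genes) followed the same order, with 57825 and 25336 in untreated KO against 49130 and 5813 in untreated Mut, and 100101 and 17697 in treated KO against 22184 and 4181 in treated Mut libraries. The part of either cell type in the Nfatc4 values was not tested.

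Nfat5 (ENSMUSG00000003847, chromosome 8, 107293470 to 107379517, plus strand), the salt-responsive and calcineurin-independent factor, had the largest counts of the 10 and ranked 266 of all genes by mean. It held 9176 and 9136 normalized counts in untreated KO, 8661 and 9279 in untreated Mut, 8661 and 8310 in treated KO and 8106 and 9717 in treated Mut libraries. Mut values spread more between mice than KO values, and the genotypes overlapped under both treatments. The authors' deposited table put KO over Mut at 0.03 untreated (95% interval -0.21 to 0.27) and -0.07 with cytokines (95% interval -0.31 to 0.17), FDR 1.00 for both.

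Set per length, the family members differed widely in level. On the scale of normalized counts per kb of annotated exon, averaged over the 8 libraries, Nfat5 stood at 483 ± 29.3 (SD), Nfatc3 at 155 ± 5.87, Nfatc2 at 112 ± 27.6, Nfatc1 at 80.0 ± 11.8 and Nfatc4 at 4.45 ± 2.48. Nfat5 lay above Nfatc3 in all 8 libraries and Nfatc1 above Nfatc4 in all 8, while the ranges of Nfatc2 (79.6 to 156) overlapped with those of Nfatc3 (148 to 168) and Nfatc1 (65.4 to 95.97). Of the summed per-kb level of Nfatc1 to Nfatc4, Nfatc2 made up 28.6 ± 3.61% (SD, n = 2) in untreated KO and 35.8 ± 1.01% in untreated Mut islets. With cytokines its share was 26.4 ± 0.343% in KO and 35.6 ± 3.61% in Mut. Nfatc3 held the largest mean share in both genotypes. It was 47.3 ± 4.33% untreated and 45.6 ± 3.07% with cytokines in KO, against 43.5 ± 2.58% and 41.1 ± 5.92% in Mut. Each share also depends on the levels of the other factors. The mean normalized count of Nfatc3 itself was 1820 in KO and 1893 in Mut untreated, and 1805 and 1753 with cytokines.

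**Figure D2:**
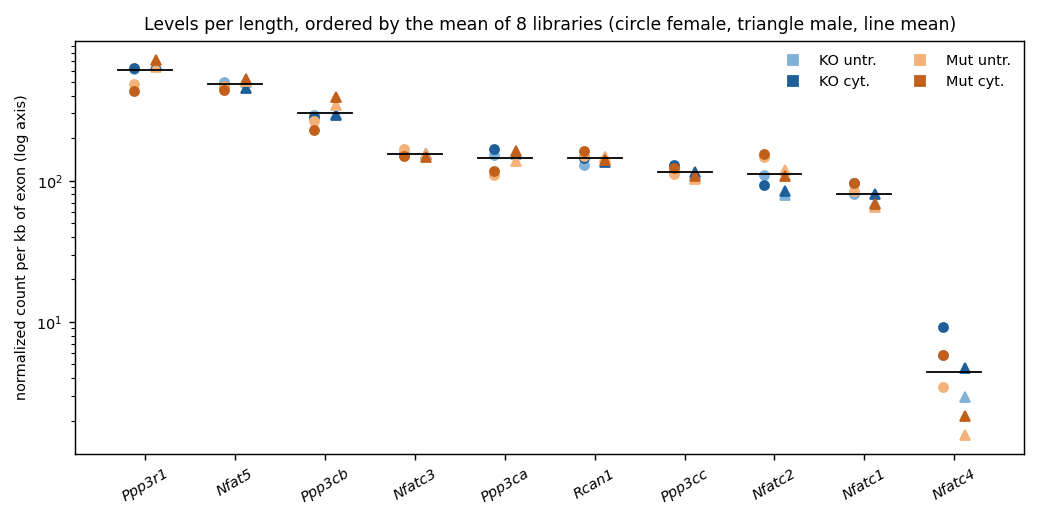
Normalized counts per kb of exon (logarithmic vertical axis) of each gene in the 8 libraries, ordered by mean, with circles for female and triangles for male mice, colours for groups and a line at the mean. Ppp3r1 (607) and Nfat5 (483) lead, most members lie between 80.0 and 299, and Nfatc4 lies apart at 4.45.

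The catalytic subunits were all expressed, with Ppp3cb the most abundant per length. On the per-kb scale Ppp3cb stood at 299 ± 49.7 (SD, 8 libraries), Ppp3ca at 145 ± 21.04 and Ppp3cc at 114 ± 8.35. Ppp3cb made up 48.7% to 59.3% of the summed per-kb level of the catalytic subunits in the 8 libraries, Ppp3ca 22.7% to 28.9% and Ppp3cc, the form best known from testis, 16.3% to 26.1%. Ppp3ca's share was 27.2 ± 0.242% (SD, n = 2) in untreated KO against 23.2 ± 0.785% in untreated Mut, and 28.5 ± 0.614% against 24.7 ± 0.429% with cytokines, so that KO shares were higher under both treatments without overlap. Over both treatments the share ran from 27.1% to 28.9% in KO and from 22.7% to 25.0% in Mut libraries. Counts of single genes lay higher in KO without overlap for 18.6% of all genes untreated and for 14.7% with cytokines. For 5.36% of all genes all 4 KO libraries lay above all 4 Mut libraries. These are counts and not shares, and shares were not computed over all genes. The counts of Ppp3ca itself overlapped between genotypes with cytokines. The Ppp3ca share was not tested. Lengths here are all annotated exon bases of a gene. With the longest transcript instead, Ppp3cb (688) came before Ppp3r1 (685) and Nfat5 (661), Ppp3ca (304.2) changed places with Nfatc3 (303.8), and Nfatc2 (174) with Ppp3cc (137). On that scale the range of Nfatc2 (123 to 241) lay below that of Nfatc3 (291 to 329) and still overlapped with that of Nfatc1 (102 to 149). The shares above were computed with all annotated exon bases only.

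Ppp3ca (ENSMUSG00000028161, chromosome 3, 136670124 to 136937727, plus strand), the alpha catalytic form, held 1508 and 1545 normalized counts in untreated KO and 1103 and 1382 in untreated Mut libraries. With cytokines it held 1672 and 1578 in KO and 1172 and 1619 in Mut. KO libraries were higher than Mut libraries without overlap when untreated, as for 18.6% of all genes, and the groups overlapped with cytokines because the Mut male reached the KO range. The authors' deposited table gave a log2 difference of 0.30 untreated (SE 0.19, 95% interval -0.08 to 0.67, unadjusted p = 0.125, FDR 1.00). With cytokines the authors' deposited table gave 0.22 (SE 0.19, 95% interval -0.16 to 0.60, FDR 1.00).

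Ppp3cb (ENSMUSG00000021816, chromosome 14, 20499364 to 20546573, minus strand), the beta catalytic form, and the regulatory subunit Ppp3r1 (ENSMUSG00000033953, chromosome 11, 17159263 to 17200375, plus strand) varied mainly between the Mut mice. Ppp3cb held 2573 and 2622 normalized counts in untreated KO, 2484 and 2558 in treated KO, 2342 and 3012 in untreated Mut and 2025 and 3478 in treated Mut libraries. Ppp3r1 held 1994 and 2152 in untreated KO, 2045 and 2121 in treated KO, 1565 and 2063 in untreated Mut and 1402 and 2330 in treated Mut libraries. For both genes the female library was the lower one in every group, as for 19.4% of all genes, and the distance between the sexes was widest in treated Mut islets, at -0.78 (log2 female over male) for Ppp3cb and -0.73 for Ppp3r1. With 1 mouse of each sex per genotype, sex and individual mouse cannot be told apart. The authors' deposited table gave KO over Mut for Ppp3cb as -0.04 (95% interval -0.52 to 0.43) untreated and -0.13 (95% interval -0.60 to 0.35) with cytokines. For Ppp3r1 the authors' deposited table gave 0.19 (95% interval -0.28 to 0.66) and 0.16 (95% interval -0.31 to 0.63), all 4 with FDR 1.00. Ppp3r1 shares 462 exon bases (14.3%) with Wdr92 on the same strand, and the treatment of reads in the shared stretch was not given in the sources used here.

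Ppp3cc (ENSMUSG00000022092, chromosome 14, 70217865 to 70289471, minus strand), the gamma form, held 344 and 336 normalized counts in untreated KO, 332 and 305 in untreated Mut, 386 and 342 in treated KO and 366 and 323 in treated Mut libraries. It was higher in KO in all 4 same-sex pairs and, untreated, without overlap, as for 15.7% and 18.6% of all genes, and the size of the difference was 3.39% to 10.1%. In the authors' deposited table the log2 difference was 0.09 untreated (95% interval -0.28 to 0.46) and 0.08 with cytokines (95% interval -0.29 to 0.44), both with FDR 1.00. An antisense transcript, Gm49417, shares 91 (3.05%) of its exon bases.

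Rcan1 (ENSMUSG00000022951, chromosome 16, 92391953 to 92470867, minus strand), whose internal promoter printed above is a classical readout of calcineurin and NFAT activity, hardly differed between groups. It held 401 and 453 normalized counts in untreated KO, 460 and 452 in untreated Mut, 450 and 422 in treated KO and 497 and 435 in treated Mut libraries. The genotypes overlapped under both treatments. The authors' deposited table gave KO over Mut as -0.09 (SE 0.17, 95% interval -0.43 to 0.25) untreated and -0.10 (SE 0.17, 95% interval -0.44 to 0.25) with cytokines, both with FDR 1.00. Its response to cytokines in the authors' deposited table was 0.03 in KO (95% interval -0.34 to 0.40) and 0.03 in Mut (95% interval -0.34 to 0.40). Changes of Rcan1 beyond about 1.4-fold in either direction lie outside these intervals. Both female mice had more Rcan1 after cytokines (0.17 and 0.11 on the log2 scale) and both male mice less (-0.10 and -0.05). Counts of the whole gene would hide a shift between its starts.

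Taking all 10 genes, the authors' FDR passed 0.05 for 0 of them in each of the 4 comparisons. It passed for 0.0429% of all genes in the cytokine response of KO islets, for 0.0122% in that of Mut islets, for 0.41% between genotypes untreated and for 0.998% with cytokines. At an unadjusted p below 0.05 the counts of members in the authors' deposited tables were 0, 0, 1 and 1, Nfatc2 in both cases, beside 1.02%, 0.918%, 4.89% and 5.88% of all genes. Limma on the recovered reads without a block called 0 members in each comparison, beside 0% of all genes in both cytokine responses and 0.0123% in both genotype comparisons. The median log2 difference of the 10 genes was 0.02 and 0.06 for KO over Mut untreated and with cytokines, beside 0.00 for all genes in both.

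**Figure D3:**
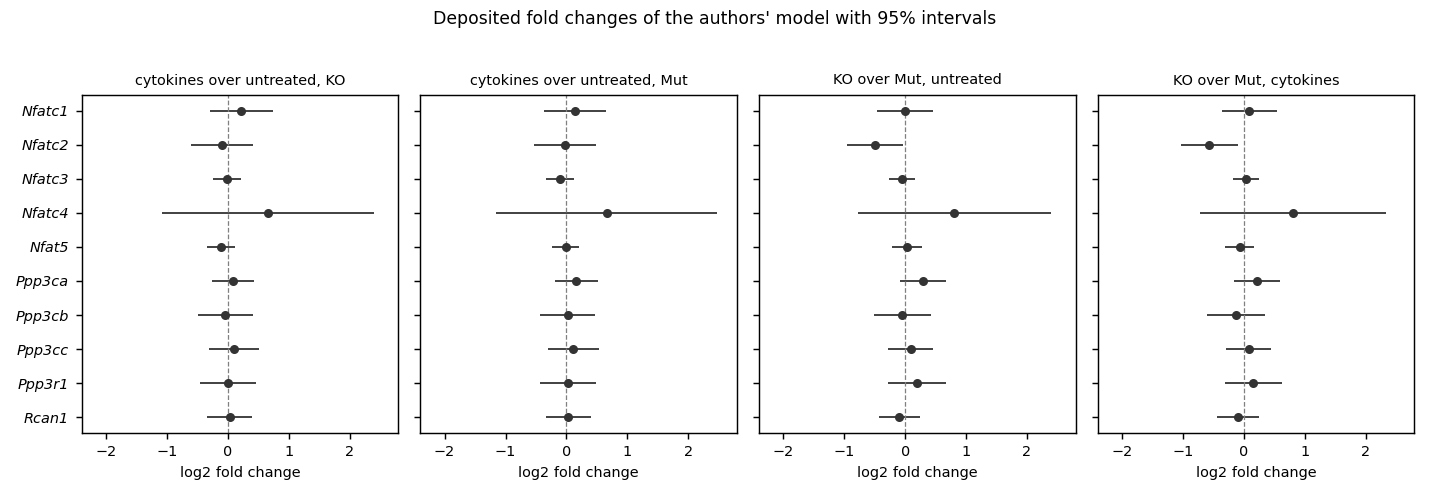
Deposited log2 fold changes (horizontal axes) of the 10 genes in the 4 comparisons, with 95% intervals from the deposited statistic. Of the 40 intervals only those of Nfatc2 for KO over Mut, -0.95 to -0.03 and -1.03 to -0.10, lie off 0, and those of Nfatc4 are the widest.

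The deposited responses to cytokines in 11 mM glucose over 2 h lay between -0.11 and 0.23 on the log2 scale for all members but Nfatc4. For Nfatc4 the response was 0.66 in KO (95% interval -1.07 to 2.39) and 0.66 in Mut (95% interval -1.15 to 2.47). Within a mouse, where both cultures come from the same islets, Nfatc1, Nfatc4, Ppp3ca and Ppp3cc were higher with cytokines in all 4 mice, a pattern that 12.4% of all genes showed. For Nfatc1 the log2 ratio was 0.24 (female) and 0.21 (male) for KO and 0.19 and 0.07 for Mut. Its response in the authors' deposited tables was 0.23 (95% interval -0.28 to 0.74) in KO and 0.14 (95% interval -0.38 to 0.65) in Mut. Limma with the mouse as a block gave Nfatc1 0.22 in KO (SE 0.073, unadjusted p = 0.0147, adjusted p = 0.430). It gave Ppp3ca 0.16 in Mut (SE 0.064, unadjusted p = 0.0378, adjusted p = 0.379). In that fit 8.31% of all genes in KO and 12.1% in Mut had an unadjusted p below 0.05. Ratios for Nfatc4 were 0.64 and 0.65 (KO) with 0.73 and 0.41 (Mut), and those for Ppp3ca 0.15 and 0.03 (KO) with 0.09 and 0.23 (Mut). Ppp3cc had 0.17 and 0.03 (KO) with 0.14 and 0.08 (Mut). Stromal marker sums were also higher with cytokines in 3 of the 4 mice, the KO male being the exception, and their part in these ratios was not tested. Nfatc2 itself moved in both directions, with ratios of -0.24 and 0.09 for KO and of 0.08 and -0.15 for Mut. In KO islets Nfat5 and Ppp3cb were lower with cytokines without overlap, as for 14.6% of all genes, and Ppp3ca was higher, as for 15.3%; in Mut islets only Nfatc3 was separated, lower, as for 10.9%. For Nfat5 the authors' deposited table gave -0.11 (95% interval -0.34 to 0.12) in KO islets.

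**Figure D4:**
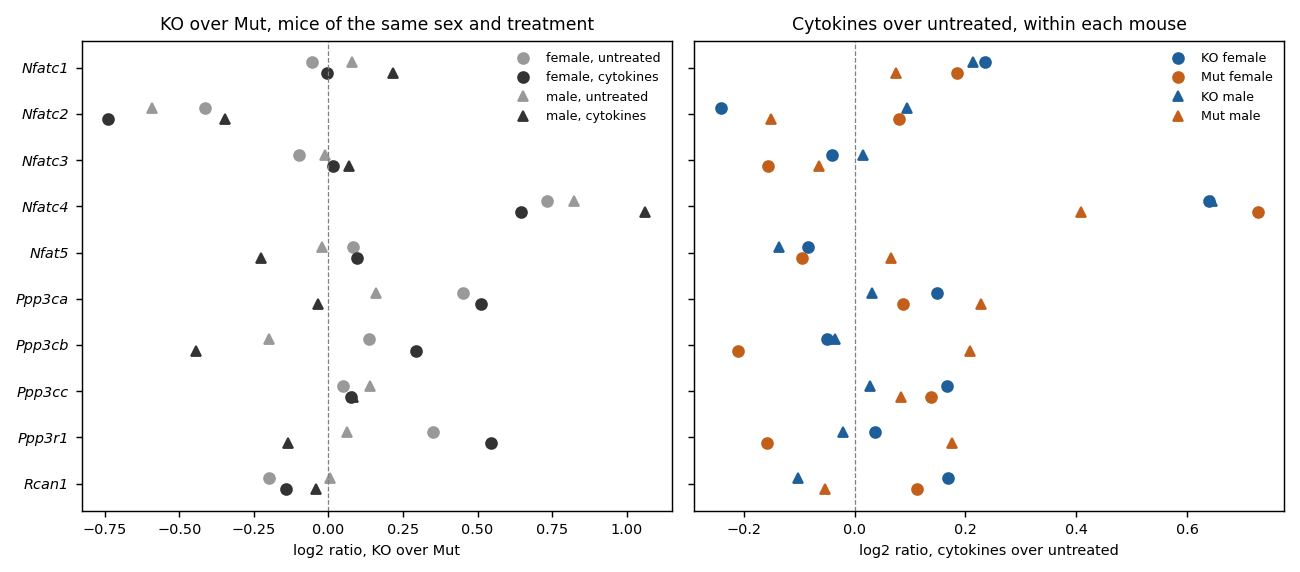
Log2 ratios of normalized counts for each gene, KO over Mut between mice of the same sex and treatment (left) and cytokine over untreated within each mouse (right), with circles for females, triangles for males and colours as in the legends. All 4 Nfatc2 ratios on the left lie below 0 (-0.74 to -0.35), and the 4 ratios of Nfatc1, Nfatc4, Ppp3ca and Ppp3cc on the right lie above 0.

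Whether the response differed between genotypes was tested as the difference of the KO and Mut cytokine responses, which share no library. For all 10 members the difference computed from the authors' deposited tables had an adjusted p of 1.00, and 0 of all genes passed, with 0.22% at an unadjusted p below 0.05. For Nfatc2 the difference was -0.07 (SE 0.37, 95% interval -0.80 to 0.65), for Nfat5 -0.10 (95% interval -0.42 to 0.22) and for Rcan1 0.00 (95% interval -0.52 to 0.53). These intervals, from the deposited standard errors, are wide enough to leave changes of up to about 1.7-fold for Nfatc2 unseen. Limma with the mouse as a block, which uses the pairing of both cultures, gave the Nfatc2 difference as -0.04 with an SE of 0.13 (unadjusted p = 0.773). Without the block its SE was 0.31.

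Some members varied together across libraries and others in opposite directions. Described by Pearson's r of log2 values over the 8 libraries, which come from 4 mice, Nfatc2 ran against Ppp3ca (r = -0.86) and Ppp3r1 (r = -0.81). Nfatc4, the low-count member, ran with Ppp3cc (r = 0.95) and Nfatc1 (r = 0.90), and Nfatc1 with Ppp3cc (r = 0.89). The regulatory subunit Ppp3r1 ran with the catalytic subunits Ppp3ca (r = 0.89) and Ppp3cb (r = 0.83) but not with Ppp3cc (r = -0.33), and Nfat5 ran with Ppp3cb (r = 0.88). Libraries from a single mouse share their tissue, and with so few mice these values describe these preparations only. The female-minus-male differences of 12351 genes correlated at 0.78 between the treated and untreated KO cultures and at 0.79 between the Mut cultures. Between KO and Mut, and so between different mice, they correlated at 0.48 untreated and 0.49 with cytokines. Cultures of the same mice were thus more alike, but part of this likeness was also seen between different mice.

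The 5 genes whose pattern was most like that of Nfatc2, out of 7443 genes averaging 500 normalized counts or more, were Myo10 (r = 0.98, an unconventional myosin), Reep6 (0.98, a receptor accessory protein), Mtss1l (0.98, a membrane-bending protein of the actin skeleton), Nup210 (0.98, a nuclear pore glycoprotein) and Ky (0.98). Without the 2 libraries farthest from the median of Nfatc2 the values were 0.97, 0.98, 0.97, 0.98 and 0.98. Myo10, Reep6, Mtss1l, Nup210 and Ky each had every KO library below every Mut library, as did 4.76% of all genes. They were picked for likeness to Nfatc2, itself lower in KO, so this separation partly follows from the choice. Mtss1l held 894 and 565 normalized counts in untreated KO, 771 and 582 in treated KO, 1383 and 1052 in untreated Mut and 1467 and 1028 in treated Mut libraries. In the authors' deposited table its log2 difference of KO over Mut was -0.74 untreated and -0.88 with cytokines (FDR 0.115 for the latter). For Rcan1 the 5 most alike were Ctsb (r = 0.94, a lysosomal protease), Akap1 (0.93, an anchor for kinase A at mitochondria), Hps1 (0.93, of lysosome-related organelle formation), Zbtb39 (0.92) and Slc25a12 (0.91, a mitochondrial aspartate-glutamate carrier). Slc25a12 and Zbtb39 dropped to 0.41 and 0.63 without the 2 libraries farthest from the Rcan1 median, so their likeness rests on those libraries.

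**Figure D5:**
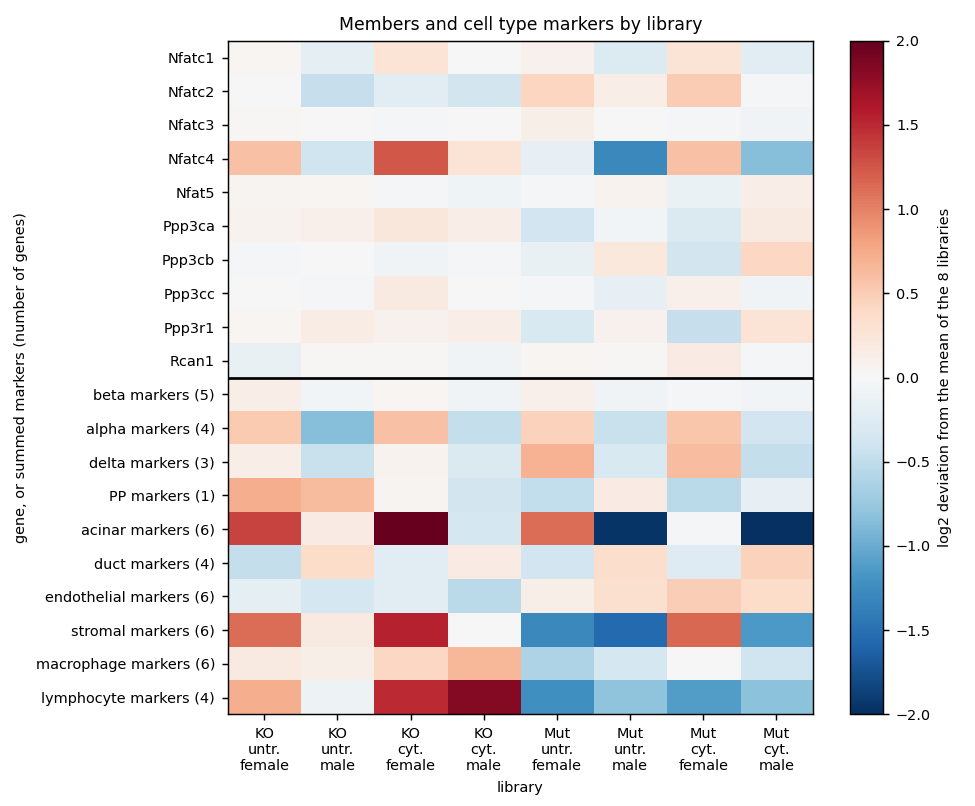
Log2 deviation from the mean of the 8 libraries (colour, from -2 to 2, values beyond the ends shown at the ends) for each gene and, under the line, for summed cell type markers with the number of genes in brackets. Nfatc2 is highest in both Mut female libraries, while Nfatc3, Nfat5 and Rcan1 stay near 0. Nfatc4 and the stromal sum are both higher in the female library of each group. In the KO male, Nfatc4 is higher with cytokines and the stromal sum is lower.

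Around the members, the genes that feed, brake or follow the pathway were also mostly not called in the authors' deposited tables. Those tables called 0.0429% of all genes in the cytokine response of KO islets and 0.0122% in that of Mut islets. Between genotypes they called 0.41% untreated and 0.998% with cytokines. With shares this low, 0 calls in a short list do not set its genes apart from others. Of 14 measured genes for calcium entry and calmodulin (channels, Stim and Orai proteins, calmodulins), 0 were called in each comparison, with 4 on the higher side in KO untreated and 3 with cytokines, beside 49.0% and 49.2% of all genes. Their median log2 differences were -0.06 and -0.06, beside 0.00 for all genes. The blocked limma fit called Cacna1c, a voltage-gated calcium channel, lower in KO untreated (-0.43, adjusted p 0.0202) and with cytokines (-0.50, adjusted p 0.0108), and Itpr3, a calcium release channel, with cytokines (-0.43, adjusted p 0.0353). The blocked fit called 2.1% of all genes untreated and 3.75% with cytokines. On means per mouse neither Cacna1c nor Itpr3 was called in limma (adjusted p 0.954 and 0.998). Of 10 calcineurin regulators and docking proteins and 6 genes of the calcineurin-dependent CREB coactivators and their kinases, 0 were called in each comparison. For the Nfat5 osmotic targets, 0 of 5 were called.

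Of 15 NFAT kinases and transport genes, 0 were called by the authors, and Xpo1, the exportin that carries NFAT proteins out of the nucleus, had the smallest p of the pathway lists except for Cxcl10 in both cytokine responses. It held 3389 and 3295 normalized counts in untreated KO and 4910 and 4761 in treated KO libraries, and 2769 and 3456 in untreated Mut and 3687 and 5262 in treated Mut libraries. Each mouse had more Xpo1 with cytokines. The authors' deposited tables gave 0.53 (SE 0.17, unadjusted p = 0.00127, FDR 1.00) in KO and 0.52 (SE 0.17, unadjusted p = 0.00186, FDR 1.00) in Mut, and limma with the mouse as a block called it in both (adjusted p 0.0177 and 0.0274), as it did 0.123% and 0.153% of all genes. Without the treated Mut male the Mut value in limma was 0.25.

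Among 26 partners and proposed targets of NFAT in beta cells, the authors called 1 gene in each genotype comparison, Irf4, a partner of NFAT in lymphocytes. Of all genes they called 0.41% untreated and 0.998% with cytokines. Irf4 held 139 and 51.0 normalized counts in untreated KO, 241 and 79.0 in treated KO, 1.33 and 3.44 in untreated Mut and 6.52 and 0.83 in treated Mut libraries. The authors' deposited table gave log2 differences of 5.28 (SE 1.04, FDR 0.000384) and 5.52 (SE 0.92, FDR 2.08e-06). Lymphocyte markers, 4 of 9 of which were in the tables, summed to 341 to 1305 normalized counts in KO and 156 to 210 in Mut libraries, with Cd3e, Cd3g, Cd4 and Cd8a not in the tables. Their part in the Irf4 difference was not tested. In limma on the recovered reads the Irf4 calls did not hold without the sex block (adjusted p 0.343 untreated and 0.186 with cytokines) and held with it (0.019 and 0.0115), with differences of 4.02 to 5.44 untreated and 4.21 to 6.25 with cytokines when a library was left out. On the mean of both cultures per mouse, where the cultures of a mouse do not count as independent, Irf4 was not called (4.98, adjusted p 0.255). Foxm1, a cell-cycle factor, stood at 83.7 and 80.6 in untreated KO against 31.9 and 29.8 in untreated Mut libraries, and the authors' deposited table gave a log2 difference of 1.41 with an FDR of 0.101 (SE 0.41). The blocked limma fit also called Foxm1 untreated (adjusted p 0.0229), as it did 2.1% of all genes. With cytokines it called Ccna2, a cyclin (1.04, adjusted p 0.033), as it did 3.75% of all genes. Ccna2 had an FDR of 0.117 with cytokines in the authors' deposited table. On means per mouse neither Foxm1 nor Ccna2 was called in limma (adjusted p 0.467 for both).

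Of the 4 measured genes of the NFAT target cytokine list, which NF-κB and interferon also induce, Cxcl10 was called. This chemokine rose in KO islets from 57.0 and 62.1 to 266 and 529 normalized counts, a log2 change of 2.72 in the authors' deposited table (SE 0.48, FDR 0.000146). In Mut islets it went from 34.6 and 28.7 to 96.7 and 177, and the authors' deposited table gave 2.14 with an FDR of 0.13 (SE 0.51). With cytokines it was higher in KO than in Mut without overlap of the 2 groups, as for 14.7% of all genes. Its log2 difference in the authors' deposited table was 1.54, with an FDR of 0.0308 (SE 0.42). The other measured genes of the list lay on the opposite side of 0 there and were not called. The authors' deposited table gave Il6, a cytokine, as -1.82 (unadjusted p = 0.0218, FDR 0.559), Ptgs2, the inducible cyclooxygenase, as -1.53 (unadjusted p = 0.0349, FDR 0.702) and Ccl2, a chemokine, as -0.08 (FDR 1.00). The median of the 4 genes was -0.81, beside 0.00 for all genes. Macrophage markers, given above, were also higher in KO, and their part in the Cxcl10 values was not tested. In limma on the recovered reads the Cxcl10 response in KO and its genotype difference had adjusted p-values of 1.00 and 0.352 without a block and 0.0177 and 0.0424 with it, and the genotype difference was not called on means per mouse (1.21, adjusted p 0.467). Its difference between genotypes was 1.02 without the treated KO male.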

How the data were processed

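RNA from islets of 4 mice was sequenced in 8 libraries. Per the submitters' processing notes, HISAT2, HTSeq and DESeq2 were used with GRCm38; versions are not given there. The authors deposited 4 comparison tables with group means of normalized counts (signal), log2 fold changes, a Wald score, and p-values with their FDR. Deposited calls (FDR below 0.05) are the main test; standard errors are the log2 fold change over the score, and 95% intervals are normal. The smallest mean over all libraries was 23.2, so low genes had been removed before deposit.

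Each group mean is a sum of 2 whole numbers times a step per library, which gave the reads of 16313 genes. Of these, 16092 had 1 solution in every group and 221 were settled through the deposited mean over all libraries, with a largest relative difference of 4.996e-15. Recovered normalized counts were fitted with limma 3.58.1 in R 4.3.3 as log2(value + 1), with Benjamini-Hochberg adjustment over all genes, after both steps had been tested on simulated data. No count model was run. Levels per kb use GENCODE M21 exons (16311 of 16333 identifiers matched). The male and the female library of a genotype pair across treatments, since the series' design text says that each mouse's islets were divided; the sexes pair genotypes by sex only. Limma p-values without a block, and those blocked on sex, take the 8 libraries as independent although they come from 4 mice. With the mouse as a block, p-values of the cytokine responses measure how the response varied between mice. Only the fit on the mean of both cultures rests on a single value per mouse. The authors' exact model for the deposited p-values was not stated in the sources used here.

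The members, gene lists and tests were chosen with earlier results of these data known. Named genes are all members, the 2 genes of the pathway lists with the smallest p in each comparison with any called, and the 5 genes most like Nfatc2 and Rcan1. Alternatives were the recovered reads with and without the block, pseudocounts of 0.5 and 10, scaling to total reads, a minimum mean of 100, ratios of group means, each library left out, and the mean of both cultures.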

Additional observations from a re-analysis of the deposited data

Results flagged for a closer look

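In 5 cases the mice or cultures of one kind moved one way and those of the other kind the opposite way. None of these differences was tested, and each rests on 1 mouse per sex and genotype. The share of all genes with such a split was not computed, so these cases do not set the members apart from other genes. For Ppp3cb, KO was above Mut in both female pairs and below Mut in both male pairs, and the mean log2 ratios, female minus male, differed by 0.536. For Nfat5 the pattern was the same, with a difference of 0.213. For Nfatc1 it was opposite, with KO below Mut in the females and above in the males, by -0.178. Nfatc3 was lower in KO than in Mut in both untreated pairs and higher in both treated pairs, the 2 mean log2 ratios lying 0.0976 apart. Rcan1 was higher with cytokines in both females and lower in both males, by 0.219. Among them the distance was widest for Ppp3cb, whose treated Mut libraries held 2025 and 3478 normalized counts.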

How the results depend on the processing

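Outside the fits that leave out a library, 333 of 342 values stayed the same in direction and side of the threshold. The 342 include the counts of members called, which have no direction and were unchanged in all but 1 case. With the replicate block (sex between genotypes, mouse within them), limma called 1 member with cytokines, Nfatc2 (-0.54, adjusted p 0.0367), and its adjusted p was 0.0646 untreated; the block changed no other call among the members. Over the settings run on recovered reads with all libraries, its adjusted p for KO over Mut with cytokines ran from 0.0367 to 0.739; the mean of both cultures per mouse, which is not the comparison with cytokines alone, gave 0.783. The directions that turned were all of values near 0. For Nfat5, scaling to total reads gave a cytokine response of 0.0017 in Mut islets, and the mean of both cultures gave -0.017 for KO over Mut set against the untreated value. For Nfatc3 that mean gave -0.0068 set against the value with cytokines. For Ppp3cb the Mut response was -0.0010 with and without the block and with a pseudocount of 0.5 and -0.00089 with 10. The cause was not tested.

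Leaving out each library in turn, with the lone library of a group assumed to vary like the other groups, changed no call among the members, and limma called 0 of them without each library. Of 432 such values 365 did not turn, among them the counts of members called, which have no direction. The other 67 turned in direction, over 31 results. The lowest and highest log2 values of those follow. For the cytokine response of KO islets the direction turned for Nfatc2 (-0.31 to 0.16), Nfatc3 (-0.027 to 0.0022), Ppp3r1 (-0.047 to 0.063) and Rcan1 (-0.056 to 0.12). For the cytokine response of Mut islets the direction turned for Nfatc1 (-0.11 to 0.37), Nfatc2 (-0.30 to 0.23), Nfatc4 (-0.11 to 1.25), Nfat5 (-0.15 to 0.12), Ppp3ca (-0.076 to 0.39), Ppp3cb (-0.39 to 0.39), Ppp3r1 (-0.36 to 0.37) and Rcan1 (-0.067 to 0.13). For KO over Mut untreated the direction turned for Nfatc1 (-0.17 to 0.19), Nfatc3 (-0.11 to 0.0019), Nfat5 (-0.019 to 0.080) and Ppp3cb (-0.21 to 0.15). For KO over Mut with cytokines the direction turned for Nfatc1 (-0.13 to 0.35), Nfat5 (-0.20 to 0.066), Ppp3cb (-0.46 to 0.32), Ppp3cc (-0.011 to 0.17), Ppp3r1 (-0.16 to 0.57) and Rcan1 (-0.19 to 0.0035). For the KO response minus the Mut response the direction turned for Nfatc1 (-0.14 to 0.33), Nfatc2 (-0.30 to 0.22), Nfatc4 (-0.61 to 0.76), Nfat5 (-0.23 to 0.035), Ppp3ca (-0.30 to 0.17), Ppp3cb (-0.43 to 0.35), Ppp3cc (-0.10 to 0.075), Ppp3r1 (-0.37 to 0.37) and Rcan1 (-0.093 to 0.10).

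The 2 mice per genotype limit what could be seen. Intervals from the authors' deposited tables of about 0.5 on the log2 scale to either side are usual for these genes. Those of Nfatc4, with its 8 to 42 reads, extend more than 1.5 to either side. Reads are not independent molecules, and libraries of a mouse are not independent samples.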
